A study of Homo sapiens with 4 samples.

Results

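Store-operated calcium entry is the route by which cells refill the calcium store of the endoplasmic reticulum. STIM1 and STIM2 sit in the membrane of the store, sense the fall of calcium inside it and move to contact sites with the plasma membrane, where they open channels built from ORAI1, ORAI2 and ORAI3. SARAF, a further protein of the store membrane, binds STIM1 and switches the entry off again. In skeletal muscle this entry feeds the store that RYR1 empties for contraction, and it is also known for its part in the differentiation of myoblasts. The present results concern the transcripts of these 6 genes among the 39323 genes of the tables. SARAF was selected on its TPM, which was strongly lower with the hairpin against SKP2 in both cell lines, and the STIM and ORAI genes were set beside it by their function. The changes with the hairpin are therefore a description, with no test.

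RNA-seq was performed on RD and JR1, both established cell lines of fusion-negative rhabdomyosarcoma, a childhood tumour of muscle lineage. Each line was infected with a lentivirus carrying either an shRNA against SKP2, named shSKP2.2 in the study and shSKP2 in the labels, or a non-targeting control (shSCR), and selected with puromycin. SKP2 is the substrate-binding part of a ubiquitin ligase that marks cell cycle inhibitors for degradation. Hence all 4 libraries come from infected, drug-selected cells grown in serum, 1 hairpin stands for the knockdown, and the groups are RD shSCR, RD shSKP2.2, JR1 shSCR and JR1 shSKP2.2, called control and knockdown cells of each line. Each group is 1 library, so the differences between groups could not be held against replicates and carry no p-value.

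Levels are in TPM, transcript abundances scaled by transcript length and to a fixed total per library. They can be compared between genes but keep no read counts, and sequencing depth is therefore unknown. A change is log2 of the ratio of TPM + 1 between 2 libraries, which understates the change of low genes. The 12985 genes whose TPM averaged 1 or more over the libraries were tested, and all 6 members were among them. A gene was called when its change reached 1 on this scale in either direction, and "rose" and "fell" are used of called genes only. Short structural RNAs were taken by gene symbol, and the symbols also cover ribosomal RNA genes, long ones included. This set took 50.1% to 57.1% of the TPM with shSCR and 62.3% to 64.9% with shSKP2.2. The tested genes had a median change of -0.27 (RD) and -0.21 (JR1). Changes are also given without short structural RNAs, with the rest rescaled to the same total, which brought these medians to 0.10 and 0.03. SKP2 itself went from 92.8 to 7.40 TPM (RD) and from 46.5 to 2.72 TPM (JR1), to 7.97% and 5.85% of the control. Of 8 muscle lineage markers MYF5 was at 0 in every library, while MYOD1 ranged from 87.0 to 131 TPM, and the summed TPM of the 8 markers was 413 and 574 in RD and 567 and 797 in JR1, the shSKP2.2 library being the higher in each line. CHRNA1 was the largest part of each sum (196 and 314 TPM in RD, 284 and 425 TPM in JR1), while PAX7 was lower with shSKP2.2 in both lines (10.8 and 3.36, 4.84 and 1.16) and DES in JR1 (51.3 and 36.0). The summed TPM of 4 epithelial markers was at most 0.230. That of 4 leukocyte markers lay between 2.28 and 2.95, nearly all of it CD68, with PTPRC at most at 0.01 TPM. That of 4 endothelial markers lay between 2.69 and 6.65 and was lower with shSKP2.2 in both lines, nearly all of it TEK, with PECAM1 at most at 0.05 TPM. The part of these marker levels in the results was not tested. Cells without a virus were not analysed here.

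SARAF, the inhibitor of the entry, was by far the most abundant of the 6 transcripts in the control cells. It measured 203 TPM in control RD cells and 196 TPM in control JR1 cells, above 97.6% and 98.2% of the tested genes in these libraries. With shSKP2.2 it measured 29.5 TPM in RD and 20.8 TPM in JR1. Both shSKP2.2 libraries thus lay far below both control libraries, and the lines resembled each other in each condition.

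The gene lies on chromosome 8 of GRCh38, from base 30063003 to base 30083208. The fall of SARAF left 14.5% of the control level in RD and 10.6% in JR1, log2 changes of -2.75 and -3.18. Among the tested genes it had rank 23 from the lowest change in RD and rank 33 in JR1. Without short structural RNAs 19.2% and 12.9% were left, changes of -2.37 and -2.93, at ranks 32 and 24 of 14735 genes. The difference between the lines, 0.43 on the log2 scale, is smaller than either change and was not tested. In the bulk RNA, fewer cells that express a gene and less RNA per cell cannot be told apart.

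Of the 6 members, SARAF and ORAI2 were called lower in both lines and none was called higher. Among all tested genes 7.37% were called lower and 1.08% higher in RD. In JR1 the shares were 9.05% and 1.78%, and 4.79% of the tested genes were called lower in both lines. Without short structural RNAs the same pair was called lower in both lines, as 2.4% of all genes were, and STIM2 was called higher in JR1, where 3.41% of all genes were called lower and 3.77% higher in RD, and 6.73% and 4.71% in JR1. These contrasts were used to choose SARAF, so nothing is read from the count. With 1 library per group the order of close levels cannot be judged either, as for ORAI1 and ORAI2 in control RD cells.

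**Figure D1:**
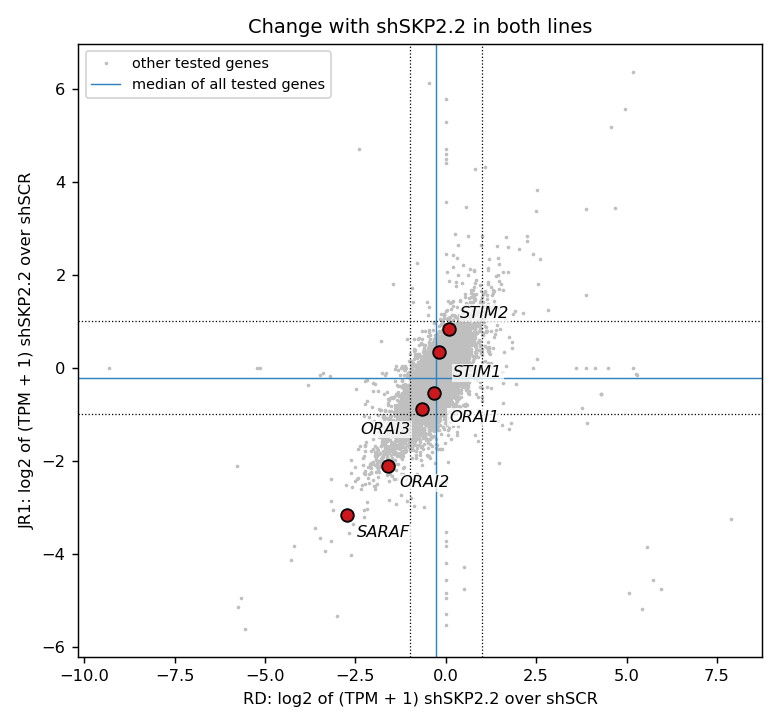
Log2 change with shSKP2.2 in RD (x axis) and JR1 (y axis) of all 12985 tested genes (grey) and the 6 members (red), with dotted lines at the limit for a call and blue lines at the median of all tested genes. SARAF (-2.75 and -3.18) and ORAI2 (-1.60 and -2.11) lie beyond the limit in both lines, and the other 4 members lie inside it.

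The channel subunits differed from each other. ORAI1, which forms the best known calcium release-activated channel, measured 18.1 TPM in control RD cells, 14.4 TPM in knockdown RD cells, 22.6 TPM in control JR1 cells and 15.2 TPM in knockdown JR1 cells. Its log2 change was -0.31 (RD) and -0.54 (JR1), neither of them called, and without short structural RNAs its sign differed between the lines, at 0.07 and -0.27. ORAI1 lies on chromosome 12 from base 121626550 to base 121642040.

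ORAI2, a subunit that can join ORAI1 in mixed channels, had the widest range of the ORAI genes. It measured 17.7 TPM in control RD cells and 5.20 TPM in knockdown RD cells, against 64.0 TPM in control JR1 cells and 14.1 TPM in knockdown JR1 cells. ORAI2 fell in both lines, to 29.3% of the control in RD and to 21.9% in JR1, log2 changes of -1.60 and -2.11. It had rank 221 from the lowest change in RD and rank 104 in JR1. The changes without short structural RNAs were -1.31 and -1.87. With the TPM as deposited, the knockdown JR1 library, although much lower than its control, held nearly as much ORAI2 as the RD control library. Without short structural RNAs ORAI2 in the knockdown JR1 library was no longer below the RD control library.

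ORAI3, a subunit found in mammals only, measured 10.8 TPM in control RD cells, 6.50 TPM in knockdown RD cells, 13.9 TPM in control JR1 cells and 7.07 TPM in knockdown JR1 cells. Its log2 changes of -0.66 and -0.88 were not called. Without short structural RNAs they were -0.32 and -0.66. Both knockdown libraries lay below both control libraries for each ORAI gene and for SARAF, 4 of the 6 members, as for 38.8% of all tested genes, and without short structural RNAs this held for SARAF and ORAI3 alone, as for 18.8% of the genes then tested.

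The start regions of ORAI2, ORAI3 and STIM2 are shown because ORAI2 and ORAI3 had the lowest changes of the members next to SARAF and STIM2 had the highest. Each runs from 250 bases before to 50 bases after the start of the gene in the deposited tables, taken from RefSeq (GRCh38.p14, plus strand). Capitals mark CANNTG, the E-box read by helix-loop-helix factors such as MYOD, a word that reads alike on both strands.

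ORAI2, chr7:102433325-102433624: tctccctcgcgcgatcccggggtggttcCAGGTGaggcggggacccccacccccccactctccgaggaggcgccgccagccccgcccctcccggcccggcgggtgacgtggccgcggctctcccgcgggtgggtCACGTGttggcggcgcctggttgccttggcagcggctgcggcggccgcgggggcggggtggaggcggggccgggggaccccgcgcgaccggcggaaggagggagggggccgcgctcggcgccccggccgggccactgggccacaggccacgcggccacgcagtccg

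ORAI3, chr16:30948818-30949117: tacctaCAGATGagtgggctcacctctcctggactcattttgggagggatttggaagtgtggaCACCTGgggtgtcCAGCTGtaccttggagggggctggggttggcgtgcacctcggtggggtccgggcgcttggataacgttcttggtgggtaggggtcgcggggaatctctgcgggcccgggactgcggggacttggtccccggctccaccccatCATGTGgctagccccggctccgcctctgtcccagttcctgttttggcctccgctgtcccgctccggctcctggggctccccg

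STIM2, chr4:26860591-26860890: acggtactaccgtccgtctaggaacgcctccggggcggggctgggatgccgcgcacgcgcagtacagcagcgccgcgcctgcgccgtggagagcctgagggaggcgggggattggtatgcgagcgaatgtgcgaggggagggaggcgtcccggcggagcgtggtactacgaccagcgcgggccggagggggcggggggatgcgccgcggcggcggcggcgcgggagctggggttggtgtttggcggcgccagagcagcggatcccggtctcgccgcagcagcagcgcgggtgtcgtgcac

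The ORAI2 region held 2 such words, of which CAGGTG began 222 bases before the start and CACGTG 116 bases before it. The ORAI3 region held 4, of which CAGCTG began 174 bases before the start. The STIM2 region held 0. CANNTG occurs in 68.7% of the 35116 RefSeq start regions of the same length. The palindromes CAGCTG and CACGTG, which are forms of it, occur in 17.9% and 7.26% of them. The words are a description of the letters. The study also carried out ChIP-seq of MYOD in RD cells with shSCR and shSKP2.2, which was not analysed here. Since the regions were picked by the changes, no link between words and changes is read from them. The regions of SARAF, ORAI1 and STIM1 are not shown.

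The STIM sensors were the lowest of the 6 transcripts in the controls. STIM1, the main sensor, lies on chromosome 11 from base 3854604 to base 4093210. It measured 7.35 TPM in control RD cells, 6.31 TPM in knockdown RD cells, 5.51 TPM in control JR1 cells and 7.23 TPM in knockdown JR1 cells. The log2 change of STIM1 was -0.19 (RD) and 0.34 (JR1), and the sign in RD depended on the scaling, with 0.17 without short structural RNAs against 0.64 in JR1. STIM2, a sensor that responds to smaller losses of store calcium, measured 5.32 TPM in control RD cells, 5.74 TPM in knockdown RD cells, 4.57 TPM in control JR1 cells and 8.96 TPM in knockdown JR1 cells. Its change was 0.09 (RD) and 0.84 (JR1), inside the limit with the TPM as deposited. After centring on that of all genes the JR1 change was 1.05, and without short structural RNAs it was 1.19, past the limit in both cases. The RD values under the same scalings were 0.36 and 0.48. The change of STIM2 in RD minus that in JR1 was -0.75, the widest gap between the lines among the 6 members, and was not tested.

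Ratios within a library do not depend on how much of the TPM the short structural RNAs take. SARAF TPM over the summed TPM of both STIM genes was 16.1 in control RD cells and 2.45 in knockdown RD cells, and 19.4 in control JR1 cells and 1.28 in knockdown JR1 cells. The log2 change of this ratio was -2.71 (RD) and -3.92 (JR1). SARAF TPM over summed ORAI TPM went from 4.36 to 1.13 in RD and from 1.95 to 0.571 in JR1. SARAF was lower relative to both gene families in the same libraries. It was chosen for its fall in these libraries, so lower ratios to genes that changed less follow from that choice.

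The summed ORAI TPM was 46.7 in control RD cells, 26.1 in knockdown RD cells, 100.5 in control JR1 cells and 36.3 in knockdown JR1 cells. Over the summed STIM TPM this gave 3.69 and 2.17 in RD and 9.97 and 2.24 in JR1. The lines, which differed in this ratio with shSCR, lay close to each other with shSKP2.2. The make-up of the ORAI sum changed as well. ORAI2 was 38.0% of it in control RD cells and 19.9% in knockdown RD cells, and 63.7% in control JR1 cells and 38.7% in knockdown JR1 cells. ORAI1 was 38.8% and 55.2% in RD and 22.5% and 41.9% in JR1, the largest ORAI share in knockdown RD cells and close to that of ORAI2 in knockdown JR1 cells. ORAI3 made up 13.8% to 24.9%. STIM2 was 42.0% and 47.6% of the summed STIM TPM in RD and 45.3% and 55.3% in JR1, higher with shSKP2.2 in each line.

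**Figure D2:**
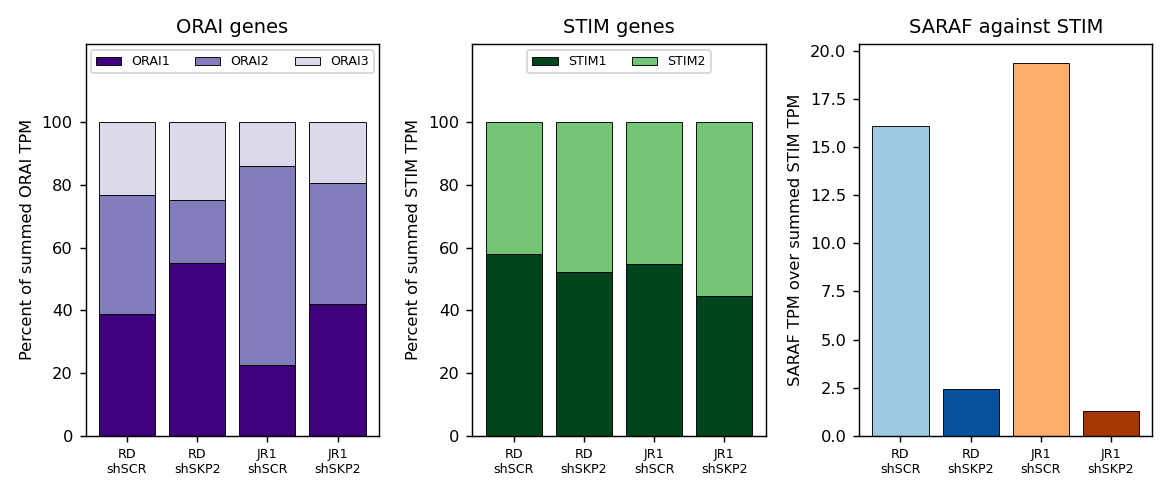
Share of each ORAI gene in the summed ORAI TPM (left), of each STIM gene in the summed STIM TPM (middle) and SARAF TPM over summed STIM TPM (right) in each library. The ORAI2 share was lower with shSKP2.2 in both lines (38.0% to 19.9% and 63.7% to 38.7%), and the SARAF ratio went from 16.1 to 2.45 and from 19.4 to 1.28.

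Between the lines, ORAI2 was the member that differed. In shSCR cells its level in RD was lower than in JR1 by a log2 difference of -1.79, and in shSKP2.2 cells the difference was -1.28, both past the limit. Of all tested genes 3.45% were called lower in RD with shSCR and 6.5% higher, and with shSKP2.2 the shares were 2.7% and 5.39%. The other 5 members were within the limit in both conditions. SARAF differed by 0.05 in shSCR cells and by 0.49 in shSKP2.2 cells, and STIM2 by 0.18 and -0.56.

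The genes whose pattern over the 4 libraries lay nearest to SARAF were found by the Euclidean distance of log2(TPM + 1) centred on the mean of each gene, among 12863 other tested genes without short structural RNAs. PLAAT4, a phospholipase, was nearest at a distance of 0.31, and went from 19.1 to 1.32 TPM (RD) and from 13.9 to 0.770 TPM (JR1). It was followed by ISG15, a ubiquitin-like modifier (0.51), the transcription factor KLF4 (0.53), DPYSL2, a cytoskeletal regulator (0.57) and OAS2, a sensor of double-stranded RNA (0.62). Their control levels ranged widely, from 19.1 TPM for PLAAT4 to 647 TPM for ISG15 in RD. Nearest to ORAI2 were the integrin subunit ITGA7 (0.26), the endothelin receptor EDNRA (0.34) and the chemokine CXCL1 (0.40). ITGA7 measured 13.0, 4.31, 50.9 and 13.3 TPM in control RD cells, knockdown RD cells, control JR1 cells and knockdown JR1 cells, so it was higher in JR1 in both conditions, like ORAI2. These likenesses rest on 4 libraries. The genes were picked for them, so a shared order of the libraries follows from the search and is no separate result.

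The remaining calcium handling genes were read from 8 lists with 107 genes, of which 84 were tested. In RD 3 of them (3.57%) were called higher and 5 (5.95%) lower, beside 1.08% and 7.37% of all tested genes. In JR1 7 (8.33%) were called higher and 6 (7.14%) lower, beside 1.78% and 9.05%. Their median change was -0.22 (RD) and -0.16 (JR1), close to the medians of all tested genes of -0.27 and -0.21. Without short structural RNAs 7 were called higher and 2 lower in RD, and 10 higher and 5 lower in JR1, of 89 tested, where the shares of all genes were 3.77% and 3.41%, and 4.71% and 6.73%. With the TPM as deposited, calls in both lines were those of MRLN and HRC, which rose (2.38%, beside 0.539% of all tested genes), and of SEPTIN7, PLCB3, PLCG2 and VDAC1, which fell (4.76%, beside 4.79%). ATP2B1, SEPTIN4 and HOMER1 were, without short structural RNAs, called higher in both lines as well, 5 genes in all beside 1.72% of all genes, and PLCG2 and VDAC1 alone were called lower in both, beside 2.4%. ESYT2, RCAN2, JPH1, CASQ2, SLC8A3 and SLC8B1, called in 1 line, are named because their values had been seen.

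Among 25 regulators of STIM, ORAI and their contact sites, 22 were tested, with a median change of -0.26 (RD) and -0.23 (JR1). SEPTIN7, a filament protein of the cell cortex, fell from 59.2 to 24.6 TPM (RD) and from 41.2 to 16.6 TPM (JR1) (-1.24 and -1.27), and after centring on the median change it was inside the limit in RD, at -0.97, as without short structural RNAs, at -0.85. SEPTIN4 of the same family had the highest mean change of the list, from 3.14 to 6.20 TPM (RD) and from 6.47 to 19.6 TPM (JR1) (0.80 and 1.46), and passed the limit in RD too after centring (1.07) and without short structural RNAs (1.26). The tether ESYT2 was called lower in RD (-1.03) with -0.48 in JR1, a call that was lost after centring (-0.76) and without short structural RNAs (-0.67). JPH1, which holds store and surface membranes together in muscle, was called higher in JR1 (1.15) with -0.05 in RD. Of 6 TRPC channels, which have also been linked to this entry, TRPC1 was the only tested one, at 1.39 TPM in both controls and at 0.810 and 0.660 TPM with shSKP2.2.

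Of 20 genes of calcium release 14 were tested, with medians of -0.26 (RD) and 0.00 (JR1), and 2 (14.3%) were called lower in each line, beside 7.37% (RD) and 9.05% (JR1) of all tested genes. PLCG2, a phospholipase C that makes the messenger opening the store, fell from 11.1 to 0.960 TPM (RD) and from 4.30 to 0.330 TPM (JR1), log2 changes of -2.63 and -1.99 and the lowest of any listed gene in each line. PLCB3, of the same enzyme family, fell from 16.5 to 6.85 TPM and from 13.0 to 5.59 TPM (-1.15 and -1.09), and without short structural RNAs its changes of -0.83 and -0.89 were inside the limit. RYR1, the release channel of skeletal muscle, had the highest mean change of the list, from 20.2 to 30.6 TPM (RD) and from 18.8 to 26.8 TPM (JR1) (0.58 and 0.49, not called).

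Of 7 genes for pumps and their regulators 4 were tested, and MRLN, which encodes the muscle micropeptide myoregulin that restrains the pump, rose from 2.91 to 8.54 TPM (RD) and from 3.68 to 12.8 TPM (JR1) (1.29 and 1.56). ATP2A3, a pump isoform, had the lowest mean change, at -0.58 and -0.97. Of 10 store buffers 9 were tested. HRC, a calcium-binding protein of the muscle store, rose from 3.22 to 8.44 TPM (RD) and from 3.84 to 20.5 TPM (JR1) (1.16 and 2.15), and CASQ2, a calsequestrin, from 0.180 to 6.39 TPM in JR1, with 0.110 and 0.400 TPM in RD. RCN1, a buffer of many cell types, had the lowest mean change (-0.60 and -0.66).

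Of 7 genes for extrusion across the plasma membrane 4 were tested, with medians of 0.41 (RD) and 0.71 (JR1). The JR1 median was 0 with all genes above 0 TPM and 0.13 with a mean of at least 5 TPM. The calcium pump ATP2B1 went from 30.2 to 56.2 TPM in RD cells (0.87) and from 35.5 to 73.2 TPM in JR1 (1.02). In RD it passed the limit after centring (1.14) and without short structural RNAs (1.28). The exchanger SLC8A3 was called higher in JR1 (1.17) with 0.47 in RD. The pump ATP2B4 was lower, with -0.36 and -0.77. All 12 genes of mitochondrial uptake were tested, with medians of -0.37 and -0.25. VDAC1, a channel of the outer mitochondrial membrane, fell from 88.2 to 28.9 TPM (RD) and from 111.2 to 32.6 TPM (JR1) (-1.58 and -1.74), and MCU, the pore of the inner membrane, had the highest mean change (0.04 and 0.50). SLC8B1, the mitochondrial exchanger, was called lower in JR1 (-1.04) with -0.79 in RD, and this call was lost after centring (-0.83) and without short structural RNAs (-0.87).

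Downstream of the entry, calmodulin activates the phosphatase calcineurin, which sends NFAT factors to the nucleus. Of 20 genes of this branch, Homer scaffolds included, 18 were tested, with medians of -0.14 (RD) and 0.12 (JR1). HOMER1, a scaffold of calcium channels, had the highest mean change, from 5.00 to 8.59 TPM (RD) and from 5.05 to 10.3 TPM (JR1) (0.68 and 0.91, not called). HOMER1 passed the limit in both lines without short structural RNAs (1.11 and 1.25), and after centring in JR1 alone (1.12, with 0.95 in RD). NFATC2 had the lowest, from 1.64 to 0.590 TPM in RD cells (-0.73) and from 3.45 to 0.690 TPM in JR1 (-1.40, called). RCAN2, a regulator of calcineurin, rose in RD from 0.580 to 3.73 TPM (1.58) but went from 7.91 to 6.08 TPM in JR1 (-0.33).

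**Figure D3:**
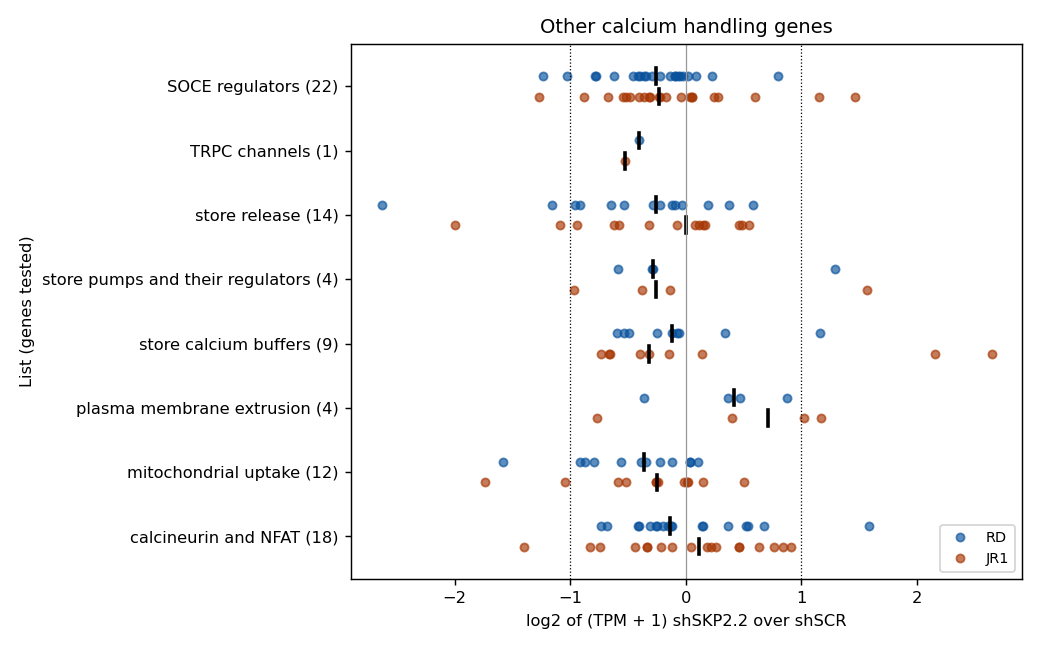
Log2 change with shSKP2.2 (x axis) of each tested gene of the 8 lists (rows, number tested in brackets), with RD in blue, JR1 in brown, the list median as a black bar and dotted lines at the limit for a call. Most genes lie inside the limit, the lowest point is PLCG2 in RD (-2.63), and the extrusion list, with 4 genes tested, has medians of 0.41 (RD) and 0.71 (JR1).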

How the data were processed

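Poly-A RNA of RD and JR1 cells was sequenced by the authors as directional paired libraries, 1 per line and condition. Alignment to GRCh38 used STAR 2.7.9a, and expression was estimated with RSEM 1.3.2 (the submitters' processing notes). The deposited TPM, with 2 decimals, sum to about 1000000 in each library and were used as they are. TPM keep no depth, so counting error could not be given. Samples were grouped by their titles. The members, lists and limits were chosen with earlier results of these data known.

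Changes were log2 ratios of TPM + 1, computed over the whole table. Named genes were the 6 members, SKP2, the highest and lowest mean change of each list, genes called in both lines, and the 5 and 3 genes nearest to SARAF and ORAI2; the rest were named after their values were seen. Alternatives were 0.1 TPM added, centring, removal of 656 short structural RNA genes by symbol, a wider removal, all genes above 0 TPM, a mean of at least 5 TPM and a limit of 1.5-fold. The arithmetic of centred calls was checked on simulated libraries without noise, which cannot show how reliable calls without replicates are. Start regions matched the gene starts of the tables. Python 3.11.15, numpy 2.4.6, pandas 2.3.3 and matplotlib 3.10.9 were used.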

Additional observations from a re-analysis of the deposited data

Results flagged for a closer look

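STIM1 had opposite signs in the lines, with log2 changes of -0.19 (RD) and 0.34 (JR1), a difference of -0.53. Without short structural RNAs both values were positive, at 0.17 and 0.64. Of the 84 listed calcium genes tested, 19 had opposite signs in the lines, in 5 of them with a difference of at least 1 (TMEM178A, JPH1, ITPR3, RCAN1 and RCAN2). The share of all tested genes with opposite signs is not given, so nothing is read from these counts. Signs of small changes also depend on the scaling. CRACR2A, for example, had -0.07 (RD) and 0.04 (JR1), and 0.28 and 0.29 without short structural RNAs. RCAN1 had 0.54 (RD) and -0.82 (JR1), a difference of 1.36, and kept its signs without short structural RNAs, at 0.95 and -0.56. Among the genes named above, JPH1 had -0.05 (RD) and 1.15 (JR1), a difference of -1.20, and without short structural RNAs 0.29 and 1.61. RCAN2 had 1.58 (RD) and -0.33 (JR1), a difference of 1.91, and the signs stayed opposite without short structural RNAs, at 2.33 and -0.09. These differences were not tested, since each change rests on 1 library per condition.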

How the results depend on the processing

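Of 120 changes and differences of the 6 members recomputed under 4 alternatives, 117 stayed on the same side of the limit. The exceptions were those of STIM2 in JR1, which passed the limit after centring (1.05), without short structural RNAs (1.19) and when RMRP, RPPH1 and transfer RNAs were left out too (1.18); the number of members called higher in JR1 was then 1 in place of 0, as with a limit of 1.5-fold, under which ORAI3 was also called lower in both lines. SARAF and ORAI2 stayed called lower in both lines under all 4. Over the 8 lists, the number called higher in RD was 3 and became 5 after centring, 7 without short structural RNAs, 8 with the wider removal and 6 with the limit of 1.5-fold; the number called lower was 5 and became 9 with 0.1 TPM added, 2 after centring and after both removals, and 17 with the limit of 1.5-fold. In JR1 the 7 called higher became 4 with a mean of at least 5 TPM and 12 with the limit of 1.5-fold, and the 6 called lower became 18 with that limit. Among all 12985 tested genes, those called higher and lower were 140 and 957 in RD, and 231 and 1175 in JR1. After centring they were 272 and 458 in RD, and 388 and 710 in JR1. Without short structural RNAs they were 555 and 503 in RD, and 694 and 991 in JR1, of 14735. Counts of all genes under the other settings are not given, so nothing is read from the list counts. Single lists, with 0 to 2 calls per line and direction, moved by at most 4 calls, to between 0 and 5. The median of the extrusion genes in JR1 was 1.02 and 1.00 after the removals, 0 with all genes above 0 TPM and 0.13 with a mean of at least 5 TPM; the last 2 tested more and fewer genes. The cell line pairs each shSKP2.2 library with an shSCR library, and the changes are given per line. A fit with the lines as pairs, which would leave 1 residual degree of freedom, was not run. Depth is unknown, so no error can be put on low TPM such as those of TRPC1.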
